A study of Homo sapiens with 12 samples.

Results

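The genes described here are the zinc finger genes of human chromosome 19: the 247 protein-coding genes whose symbol is ZNF followed by a digit and whose gene row lies on chromosome 19 of the Gencode annotation deposited with the series (hg19), against 26334 genes in the gene count tables. The rule uses symbol and position alone and no measured value, but it was set with earlier results of these data known. Of the 247 genes, 246 had a row in the gene count tables and ZNF66 did not. The separate exonic and genic counts also held 246 of the genes, there with ZNF66 but without ZNF625-ZNF20, which has no exon in the deposited annotation. The cells were A549, a human lung adenocarcinoma line, infected with a lentivirus that carried shControl, the control hairpin, or shRNF113A, the hairpin targeting RNF113A, and selected with puromycin (1 µg/ml) for 4 days, and each line was left untreated or exposed to Cisplatin (25 µg/ml) for 20 h. Each of the 4 conditions had 3 replicate libraries of polyadenylated RNA, 12 in all. All cells, controls included, therefore carried a lentivirus and had passed puromycin selection, and the labels name 1 hairpin for the depletion. The labels do not say that replicates came from separate cultures, so p-values measure only the spread between these libraries.

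Most proteins of this family bind DNA through a row of C2H2 fingers, each a short loop held by a zinc ion, and many carry a KRAB domain at the amino-terminal end. KRAB recruits TRIM28, which brings the histone methyltransferase SETDB1 and heterochromatin proteins to the bound site, and the family is best known for silencing transposable elements. The genes arose largely by tandem duplication and sit in clusters along chromosome 19, so neighbours are often close relatives. RNF113A is a RING finger protein found in the spliceosome, and Cisplatin is a platinum compound that crosslinks DNA bases.

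The start regions of 6 of the genes are shown because each stands for a response described below: ZNF296 and ZNF699, which had the largest rises with Cisplatin among genes averaging 1 CPM or more, ZNF575, which fell with it, ZNF616 and ZNF841, 2 neighbours that rose with RNF113A depletion, and ZNF569, which fell with depletion. CPM is the count per 1e+06 reads that the library had in the tested genes, with library sizes scaled by TMM. Each window runs from 250 bases before to 50 bases after the RefSeq transcription start (GRCh38.p14), 5′ to 3′ on the gene's own strand. Capitals mark CCGGAAG, a core bound by ETS family factors, and GGGCGG, the GC box bound by SP family factors, on either strand (CTTCCGG and CCGCCC on the other).
ZNF296 (chr19:45076429-45076728, minus strand): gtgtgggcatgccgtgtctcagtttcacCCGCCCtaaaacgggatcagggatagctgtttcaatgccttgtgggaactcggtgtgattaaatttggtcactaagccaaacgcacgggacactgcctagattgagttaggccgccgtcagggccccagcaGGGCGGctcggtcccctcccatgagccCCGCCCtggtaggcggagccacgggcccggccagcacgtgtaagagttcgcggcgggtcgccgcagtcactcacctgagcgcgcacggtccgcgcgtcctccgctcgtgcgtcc
ZNF699 (chr19:9309789-9310088, minus strand): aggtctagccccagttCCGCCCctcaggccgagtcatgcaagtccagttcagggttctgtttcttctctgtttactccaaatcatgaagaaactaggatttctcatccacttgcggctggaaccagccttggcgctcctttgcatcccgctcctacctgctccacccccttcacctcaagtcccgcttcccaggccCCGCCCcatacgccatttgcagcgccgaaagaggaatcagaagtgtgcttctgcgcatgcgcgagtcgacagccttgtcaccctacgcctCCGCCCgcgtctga
ZNF575 (chr19:43532938-43533237, plus strand): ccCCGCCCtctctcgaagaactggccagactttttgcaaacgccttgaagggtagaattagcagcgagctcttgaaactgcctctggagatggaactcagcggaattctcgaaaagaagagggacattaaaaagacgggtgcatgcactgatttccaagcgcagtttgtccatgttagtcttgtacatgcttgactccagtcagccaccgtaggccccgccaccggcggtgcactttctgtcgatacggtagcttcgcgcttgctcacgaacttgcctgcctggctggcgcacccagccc
ZNF616 (chr19:52139889-52140188, minus strand): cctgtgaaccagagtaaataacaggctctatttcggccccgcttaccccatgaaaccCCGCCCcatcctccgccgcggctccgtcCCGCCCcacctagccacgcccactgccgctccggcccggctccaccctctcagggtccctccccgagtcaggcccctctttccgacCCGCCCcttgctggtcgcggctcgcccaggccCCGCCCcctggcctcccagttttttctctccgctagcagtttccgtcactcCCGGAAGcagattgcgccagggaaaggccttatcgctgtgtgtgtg
ZNF841 (chr19:52095716-52096015, minus strand): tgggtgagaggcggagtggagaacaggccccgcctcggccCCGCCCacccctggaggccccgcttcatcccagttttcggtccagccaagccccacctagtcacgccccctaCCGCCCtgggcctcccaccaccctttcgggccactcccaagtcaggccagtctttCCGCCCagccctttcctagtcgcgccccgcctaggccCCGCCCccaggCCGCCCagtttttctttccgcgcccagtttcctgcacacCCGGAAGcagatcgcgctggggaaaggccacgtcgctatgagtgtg
ZNF569 (chr19:37467395-37467694, minus strand): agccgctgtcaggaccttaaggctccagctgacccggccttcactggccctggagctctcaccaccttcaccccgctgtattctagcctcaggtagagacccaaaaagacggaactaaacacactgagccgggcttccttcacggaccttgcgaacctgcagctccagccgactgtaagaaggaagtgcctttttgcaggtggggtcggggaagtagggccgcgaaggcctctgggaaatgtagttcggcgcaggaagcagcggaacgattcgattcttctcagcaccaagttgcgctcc

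The windows of ZNF616 and ZNF841 each held 1 CCGGAAG, with 4 and 5 GC boxes. ZNF296 and ZNF699 each held 3 GC boxes and no CCGGAAG, ZNF575 held 1 GC box, and ZNF569 held neither word. Over the family, 213 of the 247 genes had a window in the RefSeq table, 261 windows in all. CCGGAAG was in 39.5% of these, against 29.1% of the windows of ZNF genes on other chromosomes and 10.3% of all 35116 windows. The GC box was in 65.1%, against 57.5% for ZNF genes of other chromosomes and 45.0% of all windows. CCAAT was in 49.0%, against 39.6% and 34.6%, and the TATA box word TATAAA in 2.7%, against 5.1% and 11.5%. The windows held a median of 20 CG pairs, those of ZNF genes of other chromosomes 23 and all windows 14. Among the genes that rose with Cisplatin (below), CCGGAAG was in 40.5% of 42 windows, and in 36.9% of the 141 windows of the tested genes that did not. TGACGTCA, the palindrome bound by CREB and ATF factors, was in 5 of the 42 windows (11.9%), in 3 of the 141 (2.1%) and in 1.8% of all windows. The p53 half-site consensus was in 1 of the 42 windows (2.4%) and in 6.6% of all. These word counts are descriptions of the windows, with no test, and windows of duplicated neighbours are related in sequence.

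The 12 libraries held 26220526 to 45721152 read pairs assigned to genes. RNF113A itself, the targeted gene, had normalized read counts (counts divided by the median-of-ratios size factor of DESeq2) of 743, 709 and 725 in untreated control cells and 555, 573 and 612 in untreated depleted cells. In the presence of Cisplatin the counts were 1143, 1047 and 997 in control and 911, 856 and 1051 in depleted cells. The untreated groups did not overlap, whereas the Cisplatin-treated groups did, and the difference was −0.31 ± 0.09 on the log2 scale (adjusted p = 0.0247) without the drug and −0.14 ± 0.09 (adjusted p = 0.233) with it. Of the 5 epithelial markers, KRT8 and KRT18 had at least 70170 and 50814 normalized counts in every library and CDH1 1127 to 7180, but KRT19 only 24.4 to 193. SFTPB and SFTPC, listed as markers of alveolar type 2 cells, stayed at or under 3.83 normalized counts, though NKX2-1 and NAPSA, of the same list, had 2.24 to 20.7 and 54.3 to 158. PTPRC and CD3E, listed as markers of white blood cells, stayed at or under 4.64, but CD68, the other marker of that list, had 1022 to 1345 in control cells, 1573 to 1663 in untreated depleted cells and 2000 to 2600 in Cisplatin-treated depleted cells. Untreated control replicate 2 and Cisplatin-treated control replicate 2 stood apart from their groups, with the highest COL1A1, at 1269 and 509. The 4 fibroblast markers, of which COL1A2 and DCN were at 0 in a library, summed to 218 to 1288 in untreated control cells and 122 to 208 in untreated depleted cells. EPCAM was 203 to 670 in untreated control cells against 3103 to 3548 in untreated depleted cells. The part of these differences in the results below was not tested, and some of the results that rest on the control libraries numbered 2 are also given without them.

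A large part of the family was silent or nearly so in A549 cells. No read fell in 27 of the 246 genes in any library, another 55 had reads but too few to test, and 164 were tested among 15352 genes. In reads per kilobase of exon scaled to library size (RPKM), 101 of the 246 genes with exonic counts reached a level of 1 in untreated control cells and 89 stayed under 0.1. ZNF146, which encodes a protein made almost wholly of fingers, had by far the highest level, 94.0, 84.7 and 91.9 in the 3 untreated control libraries (mean 90.2 ± 4.88, SD, n = 3). ZNF581 followed at 15.7 ± 3.96, ZNF428 at 12.4 ± 1.33, ZNF317 at 11.45 ± 0.688 and ZNF507 at 9.51 ± 0.472. ZNF146 stood clear of every other member, the libraries of ZNF581, ZNF428 and ZNF317 overlapped in turn, and those of ZNF507 lay below those of ZNF317 but overlapped those of ZNF584, the next gene (9.38 ± 0.558).

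The silent genes were gathered in places. The genes fall into 16 runs along chromosome 19, a run ending where the next start lies over 1 Mb away. In the pericentromeric run at chr19:19779605-24312654, 9 of 36 genes were tested. ZNF91 and ZNF93, which silence SVA and L1 elements in primate cells, both lie in it and were below the filter: ZNF93 was at 0 in 10 of 12 libraries and ZNF91 ranged from 0 to 8.71 normalized counts. By contrast all 24 genes of the run at chr19:44029649-45579846 were tested, and 53 of 59 in the telomeric run at chr19:55987699-58992597. In the run at chr19:52074551-54083523 (18 of 38 tested), 11 consecutive genes from ZNF610 to ZNF28, over 521 kb and picked out after their values were seen, were all too low to test, with at most 10.2 normalized counts in any library (ZNF611).

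Cisplatin raised much of the family. Summed over the 246 genes, the CPM was 1733, 1906 and 1786 in untreated control cells and 2711, 3085 and 2885 in Cisplatin-treated control cells. Depleted cells went from 1979, 1945 and 1900 to 3016, 3001 and 2912. The treated and untreated libraries did not overlap under either shRNA, the group means being 1808 ± 88.6 and 2894 ± 187 in control cells and 1941 ± 39.6 and 2976 ± 56.2 in depleted cells (SD, n = 3). In bulk RNA, a response of some cells and a smaller response of all cells cannot be told apart.

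Gene by gene, 38 of the 164 tested genes were higher with Cisplatin over both shRNAs and 1 was lower, at an adjusted p under 0.05 and a fold of at least 2 (edgeR quasi-likelihood test, Benjamini-Hochberg). Over all genes tested, 10.3% were called higher and 11.2% lower. Without the fold limit, 116 genes of the family were higher and 4 lower, where 34.8% and 32.1% of all genes were. The median log2 fold change was 0.58, a fold of 1.5, and 149 of the 164 values (90.9%) were above 0. All genes tested had a median of 0.03, with 52.0% above 0. The value over all genes differed by gene span. Up to 16.2 kb their median was 0.23 with 16.6% called higher, from there to 27.6 kb 0.20 with 12.2%, and beyond −0.18 with 5.41%. Members in these ranges had medians of 0.58, 0.72 and 0.46, with 12 of 55, 17 of 54 and 9 of 55 called higher. ZNF genes of the other chromosomes had a median of 0.45, with 29 of 229 called higher and 11 lower, and the other genes of chromosome 19 had a median of 0.11, with 105 of 797 higher and 32 lower. Under both shRNAs all 3 treated libraries lay above all 3 untreated ones for 80 genes of the family (23.6% of all genes did so) and below them for 4 (23.4%).

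**Figure D1:**
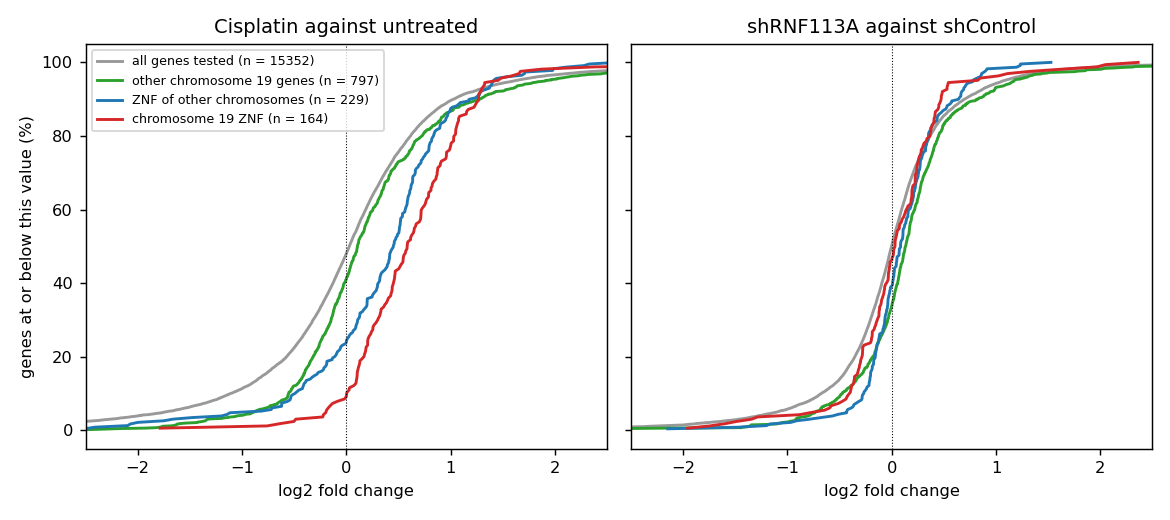
Cumulative percentage of tested genes (y axis) against the log2 fold change (x axis, cut at 2.5 either way) for the 164 chromosome 19 ZNF genes, 229 ZNF genes of other chromosomes, 797 other genes of chromosome 19 and all 15352 genes tested. With Cisplatin (left) the chromosome 19 ZNF line lies to the right of the others over most of its range, with a median of 0.58 against 0.03 for all genes, whereas with RNF113A depletion (right) the lines run close together.

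ZNF296 (chr19:45574758-45579846, minus strand) had the largest rise among genes averaging 1 CPM or more. Its normalized counts were 120, 79.8 and 161 in untreated control cells, 556, 547 and 505 with Cisplatin, and in depleted cells 107, 135 and 112 against 625, 582 and 896. No treated library came near an untreated one, and the log2 fold change over both shRNAs was 2.39 ± 0.17 (5.25-fold, adjusted p = 4.33e-08). ZNF699 (chr19:9404951-9420514, minus strand), a KRAB gene, went from 76.0, 109 and 70.7 to 263, 308 and 242 in control cells and from 51.9, 62.7 and 54.8 to 247, 225 and 226 in depleted cells. Its groups were again apart under both shRNAs, with a log2 fold change of 1.88 ± 0.14 (3.67-fold, adjusted p = 6.52e-08).

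More strongly expressed genes rose as well. ZNF30 (chr19:35417807-35436074) had means of 388 ± 36.9 and 1374 ± 58.1 in control cells and 396 ± 21.98 and 1082 ± 68.4 in depleted cells, a log2 fold change of 1.67 ± 0.08 (adjusted p = 1.46e-09). ZNF845 (chr19:53837002-53858122), with 26 finger matches, moved from 361 ± 26.7 to 1268 ± 201 in control cells and from 439 ± 20.4 to 1189 ± 105 in depleted cells (log2 1.66 ± 0.10, adjusted p = 6.95e-09). ZNF561 (chr19:9715356-9732075) had 854, 800 and 823 in untreated control cells against 3013, 2271 and 3160 with Cisplatin, and 736, 708 and 754 against 1636, 1629 and 1565 in depleted cells. ZNF561 thus rose under both shRNAs (log2 1.49 ± 0.11, adjusted p = 8.86e-08), by 3.45-fold in control and 2.27-fold in depleted cells.

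ZNF575 (chr19:44029649-44040282) was the 1 gene called lower. It had 47.6, 72.3 and 66.9 in untreated control cells and 18.1, 19.2 and 24.5 with Cisplatin, and 83.6, 118 and 103 against 22.8, 28.3 and 22.4 in depleted cells. The treated libraries lay below the untreated ones under both shRNAs, and the log2 fold change was −1.78 ± 0.18 (adjusted p = 1.21e-06). Below the fold limit, ZNF333 (−0.64), ZNF43 (−0.76) and ZNF565 (−0.50) also passed the test on the lower side, all named after their values were seen.

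Some genes were close to off without Cisplatin, and they are named after their values were seen, since their mean was under 1 CPM. ZNF540 had no read in the 3 untreated control libraries and 31, 11 and 51 reads in the Cisplatin-treated ones, at least 29.7-fold higher against a floor of 3 counts over the group. In depleted cells it had 3, 0 and 2 reads against 24, 30 and 23 (log2 4.11 ± 0.72, adjusted p = 0.000627). ZNF440 had 0, 1 and 0 reads against 28, 16 and 21 in control cells, and 0, 1 and 1 against 6, 6 and 4 in depleted cells, so every treated library exceeded every untreated one. ZNF441 and ZNF812, with 0 reads in untreated control cells, had 43 and 23 with Cisplatin, at least 13.7-fold and 7.30-fold higher. A gene so low without the drug can come into view only by rising, so these cases are descriptions.

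Members with a known role stayed under a fold of 2. ZNF274, which brings SETDB1 to the 3′ ends of zinc finger genes, rose from 760 ± 56.8 to 1282 ± 113 in control cells and from 962 ± 34.0 to 1346 ± 78.0 in depleted cells (log2 0.65 ± 0.07, adjusted p = 3.01e-06). ZNF331, an imprinted KRAB gene, rose by 0.79 ± 0.11 (adjusted p = 1.68e-05). ZNF473, which takes part in the 3′ processing of histone mRNAs through the U7 particle, rose by 0.79 ± 0.05 (adjusted p = 2.56e-08). ZNF146, the most abundant member, changed by 0.19 ± 0.07 (adjusted p = 0.0302), with 10218 to 12335 normalized counts in untreated control cells and 13838 to 14803 with Cisplatin.

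The other genes called higher ran from 1.00 (ZNF460) to 1.59 (ZNF571) on the log2 scale, ZNF235, ZNF211, ZNF121, ZNF383, ZNF222 and ZNF564 among them. Of the tested genes with a match to the KRAB A box, 30 of 102 were called higher, with a median log2 fold change of 0.66. Those without a match had 7 of 59 and a median of 0.45, a difference given with no test. The match is to 1 fixed sequence pattern, so a gene without a match may still carry a KRAB domain that departs from it. By expression, 9 of 15 genes with a mean under 1 CPM were called higher (23.1% of all genes in that range), 10 of 49 between 1 and 5 (15.4%) and 19 of 100 above 5 (6.58%). ZNF540 and ZNF440, both under 1 CPM, passed the filter through their Cisplatin-treated libraries alone. Only a rise could be called for them. With at least 10 counts required in every library, 28 of 149 members were called higher and 1 lower, with a median of 0.57 against 0.02 for all genes. The rises were spread over the chromosome: 13 of 53 tested genes in the telomeric run, 6 of 19 in the run at chr19:36673188-38307940, 5 of 18 at chr19:52074551-54083523 and 5 of 13 at chr19:7069455-9903856, but 0 of 9 in the pericentromeric run, where the median was 0.33.

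**Figure D2:**
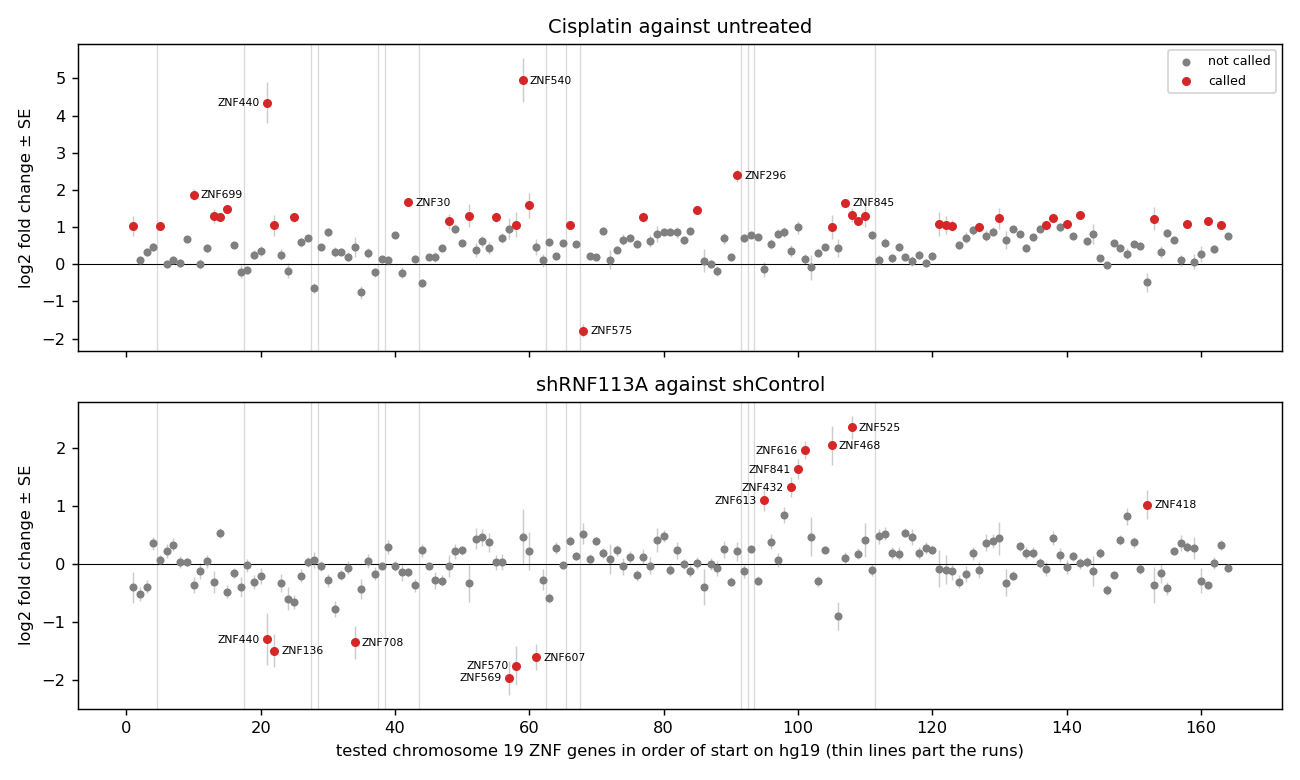
Log2 fold change ± SE (y axis) of the 164 tested chromosome 19 ZNF genes in their order along the chromosome (x axis), for Cisplatin against untreated (top) and shRNF113A against shControl (bottom), with genes called at an adjusted p under 0.05 and a fold of at least 2 in red. Called rises with Cisplatin are scattered, whereas 6 of the 7 rises with depletion lie in 1 run and 3 of the 6 falls in another. ZNF468 among these 7 rises and ZNF440 among these 6 falls could each be called in that direction only. ZNF540 and ZNF440 had at most 3 reads in any untreated library, so their fitted values at the top depend on the prior count.

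The response was measured separately under each shRNA. In control cells 36 genes were called higher and 1 lower (9.16% and 10.6% of all genes), and in depleted cells 35 higher and 1 lower (11.6% and 11.5%). The medians were 0.59 and 0.56. Of the genes called higher, 20 were in both lists, 55.6% of the control list and 57.1% of the depleted list. A test of the difference between the responses (the interaction term) called no gene of the family, where 0.769% of all genes were called higher and 0.508% lower. DESeq2 also called 0, and 25 of the 164 genes had an unadjusted p under 0.05 in edgeR. Without the fold limit 3 genes passed (1.98% of all genes did on the higher side and 2.27% on the lower): ZNF561 at −0.61 ± 0.15 (adjusted p = 0.0453), ZNF227 at −0.62 ± 0.12 (adjusted p = 0.0195) and ZNF530 at 0.65 ± 0.15 (adjusted p = 0.0318). This count rested on single libraries: it was 0 without untreated depleted replicate 1 or 3 or Cisplatin-treated depleted replicate 3, 1 without untreated control replicate 1, Cisplatin-treated control replicate 3, untreated depleted replicate 2 or Cisplatin-treated depleted replicate 1, and 7 and 5 without untreated and Cisplatin-treated control replicate 2. It was 13 without both of the latter, and 13 (5 higher, 8 lower) with the replicate number as a block within each shRNA. ZNF227 rose from 773 ± 20.2 to 1770 ± 145 in control cells but from 880 ± 68.9 to 1287 ± 73.3 in depleted cells, and ZNF530 from 268 ± 4.47 to 447 ± 49.8 and from 204 ± 7.11 to 525 ± 32.7.

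RNF113A depletion left the family as a whole near its control level. Over both treatments 7 of the 164 genes were called higher and 6 lower, against 5.47% and 5.52% of all genes. The median was 0.03, and that of all genes −0.00. Without the fold limit 38 were higher and 25 lower (23.5% and 24.0% of all genes). All depleted libraries lay above all control libraries at both treatments for 18 genes (12.8% of all genes) and below for 18 (15.7%). In untreated cells 6 were called higher and 4 lower (3.7% and 4.96%), and in Cisplatin-treated cells 7 and 7 (6.9% and 5.42%). Each of these comparisons shares its control libraries with one of the Cisplatin comparisons.

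Most of the rises with depletion lay in 1 run. Of the 7 genes called higher, 6 lie in the run at chr19:52074551-54083523, in which 18 genes were tested. ZNF468, among these 6, passed the filter through its depleted libraries alone and could only be called higher. In the stretch of the run from ZNF613 to ZNF616 (chr19:52430400-52643175, 213 kb) 4 of 7 genes were called and 6 had an adjusted p under 0.05 on the higher side. The bounds of that stretch were drawn after its values were seen, so its counts are a description. ZNF616 (chr19:52616344-52643175, minus strand), whose start region is printed above, had normalized counts of 25.3, 28.8 and 24.2 in untreated control cells and 123, 94.0 and 120 in untreated depleted cells. Under the drug the counts were 40.1, 28.8 and 26.0 against 110, 119 and 100. Every depleted library lay far above every control library, and the log2 fold change was 1.97 ± 0.15 (3.92-fold, adjusted p = 9.19e-07), with no change by Cisplatin that passed the test (0.13 ± 0.15, adjusted p = 0.462).

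Its neighbour ZNF841 (chr19:52567719-52599018, minus strand) had 19.3, 22.3 and 33.0 against 89.4, 88.3 and 68.2 without the drug, and 40.1, 61.9 and 54.3 against 134, 153 and 163 with it. The groups were apart at both treatments (log2 1.64 ± 0.17, adjusted p = 9.00e-06), and Cisplatin raised ZNF841 as well by 0.99 ± 0.17 (adjusted p = 0.000137). ZNF432, which overlaps ZNF841 on the same strand so that their reads cannot be fully told apart, rose by 1.33 ± 0.17 (adjusted p = 5.33e-05), from 22.3 ± 2.64 to 56.7 ± 7.22 in untreated cells. ZNF613, at the other end of the stretch, rose by 1.11 ± 0.20 (adjusted p = 0.000619), with 16.2, 26.0 and 27.1 in untreated control cells and 69.2, 46.5 and 68.2 in untreated depleted cells. Its change was 0.99, under the fold limit, without untreated control replicate 1. Between them, ZNF614 (0.85 ± 0.13, adjusted p = 0.000194) and ZNF350, whose protein ZBRK1 binds BRCA1 (0.39 ± 0.13, adjusted p = 0.0267), moved less, and ZNF615 had a value of 0.07 ± 0.13 (adjusted p = 0.657).

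ZNF525 (chr19:53868946-53895470), over 1 Mb further on, had the largest rise. It had 9.12, 4.64 and 5.81 in untreated control cells and 33.6, 30.4 and 50.3 in untreated depleted cells, and 17.2, 17.4 and 20.7 against 79.7, 87.1 and 90.8 with Cisplatin. Depletion and the drug both raised it, by 2.36 ± 0.20 (5.14-fold, adjusted p = 1.83e-06) and 1.32 ± 0.20 (adjusted p = 4.95e-05), and the 4 groups did not overlap. ZNF468, in the same run (2.05 ± 0.33, adjusted p = 0.000287), and ZNF418, in the telomeric run (1.03 ± 0.25, adjusted p = 0.00475), complete the count, both with a mean under 1 CPM. ZNF468 had at most 6 reads in any control library and passed the filter through its depleted libraries alone. Only a rise with depletion could be called for it, so its call is a description.

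**Figure D3:**
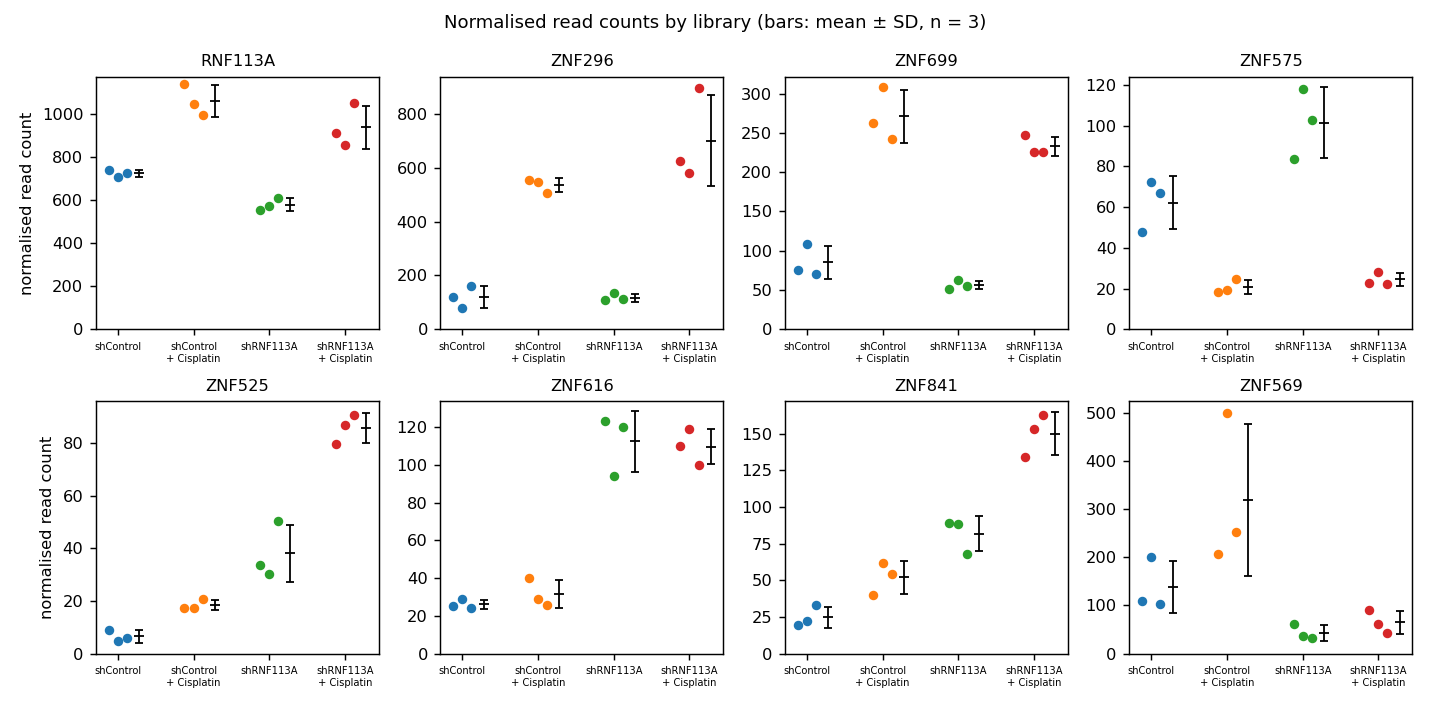
Normalized read counts (y axis, from 0) of RNF113A and 7 chromosome 19 ZNF genes in each of the 12 libraries (points, 3 per condition), with the mean ± SD beside them. ZNF296 and ZNF699 are high and ZNF575 low in both Cisplatin conditions, ZNF616 is high in both shRNF113A conditions, ZNF525 and ZNF841 step up with both factors, and ZNF569 is low in both shRNF113A conditions with 1 control library far above its group at each treatment.

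The falls with depletion also had neighbours among them. ZNF569 (chr19:37902057-37960177, minus strand) had 109, 200 and 104 in untreated control cells and 62.5, 36.1 and 32.4 in untreated depleted cells, and 207, 500 and 252 against 89.9, 62.0 and 43.4 with Cisplatin. The log2 fold change was −1.96 ± 0.29 (adjusted p = 0.000157). ZNF607 (chr19:38187264-38210691, minus strand) had 150, 263 and 135 against 75, 55.1 and 49.2, and 186, 362 and 200 against 92.2, 84.9 and 63.1 with Cisplatin (−1.60 ± 0.22, adjusted p = 8.96e-05). For both genes the control libraries numbered 2 were the highest of their groups. Without these libraries the changes were −1.54 and −1.23 and still passed the test.

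ZNF570, whose 5′ part overlaps ZNF569 on the opposite strand, fell by 1.75 ± 0.34 (adjusted p = 0.00106). These 3 genes lie in a stretch of 7 family members over 309 kb (chr19:37902057-38210691), 5 of them tested, whose bounds were likewise drawn after the values were seen. Within the stretch ZNF540 and ZNF571 did not pass the test (0.47 ± 0.48 and 0.22 ± 0.33), and ZNF793 and ZNF781 were too low to test. ZNF136 (−1.49 ± 0.28, adjusted p = 0.000934), ZNF708 (−1.34 ± 0.28, adjusted p = 0.00182) and ZNF440, which had at most 28 reads in a library, complete the genes called lower. ZNF440 passed the filter through its Cisplatin-treated control libraries alone, so with depletion only a fall could be called for it. For ZNF570 and ZNF136 too the control libraries numbered 2 were the highest of their groups (45.4 and 94.2, and 26.9 and 88.9). Their changes are given with all libraries only. Without both control libraries numbered 2, 6 members were called higher and 7 lower. All 13 genes called with depletion had a KRAB match, as did 102 of the 161 tested genes with a translation to search, though genes without a match may still carry a KRAB domain. None of the 13 averaged over 5 CPM, where 100 of the 164 tested genes lay.

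Reads in introns were then compared with reads in exons. The intronic reads of a gene are its genic minus its exonic reads. Of the 246 genes with exonic and genic counts, 148 had at least 1 exonic and 1 genic read in every library. In 38 of the 246, some of them also without reads in a library, genic reads were below exonic reads in a library, and these were set aside. After both steps, 104 genes had a mean of at least 10 intronic and 10 exonic reads and were tested. The tested members had a median of 55.9 intronic and 387 exonic reads per library, and all 10929 genes tested had 123 and 1346. Pooled over the 104 genes, intronic reads were 12.3%, 12.1% and 12.2% of exonic reads in untreated control cells. Over all genes they were 5.07%, 4.54% and 4.97%. In Cisplatin-treated control cells they were 10.8%, 9.49% and 13.9%. Depleted cells had 15.7%, 17.2% and 14.8% untreated and 20.6%, 21.5% and 21.8% with Cisplatin. Depleted libraries lay above control libraries at both treatments, and the depleted cells with Cisplatin above all others. For some genes the deposited exons hold only part of the reference coding bases, and reads in the rest count as intronic. The exons of 102 of the 104 genes held at least 80% of these bases, and the pooled shares include the others.

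**Figure D4:**
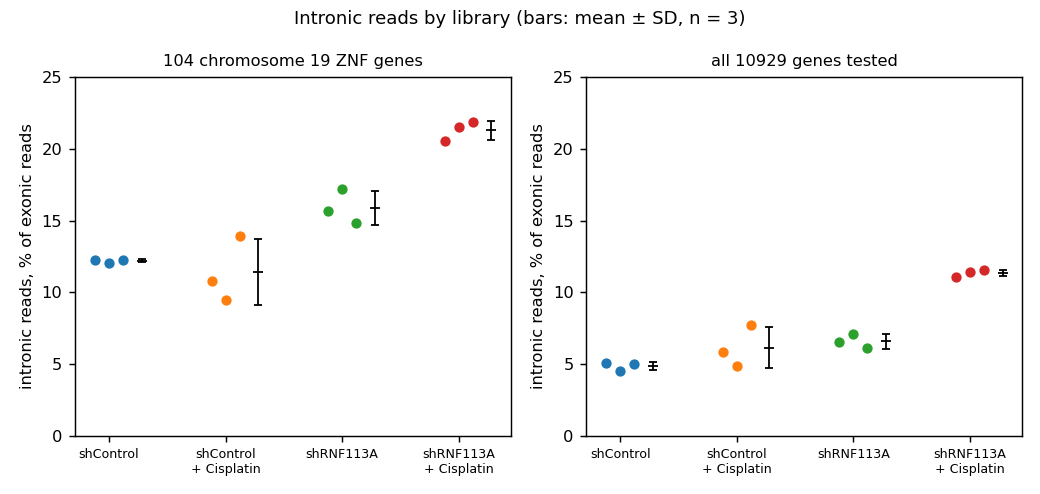
Intronic reads as a percentage of exonic reads (y axis, from 0) in each of the 12 libraries (points, 3 per condition, with the mean ± SD beside them), pooled over the 104 chromosome 19 ZNF genes tested (left) and over all 10929 genes tested (right). Both sets climb from shControl to shRNF113A and are highest with shRNF113A and Cisplatin together, at 20.6% to 21.8% and 11.1% to 11.5%.

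In Cisplatin-treated cells, depletion raised the intronic to exonic ratio of 89 of the 104 genes and lowered none, with a median log2 change of 1.01, a ratio 2.01 times as high. The same held over all genes, of which 84.3% rose and 0.21% fell, with a median of 0.97. In untreated cells 16 of 104 rose and none fell, where 30% of all genes rose and 0.156% fell, and the medians were 0.43 and 0.47. Cisplatin in depleted cells raised the ratio of 43 genes and lowered none (67.1% and 0.741% of all genes), with medians of 0.52 and 0.76. In control cells Cisplatin changed few members: 4 rose (ZNF101, ZNF43, ZNF550 and ZNF574) and 3 fell (ZNF235, ZNF524 and ZNF765), with a median of −0.08, where 18.2% of all genes rose and 1.25% fell, with a median of 0.29. That last count rested on single libraries: it was 13 rises and 3 falls without Cisplatin-treated control replicate 2, with a median of 0.09, and 2 rises and 11 falls without replicate 3, with a median of −0.26. It was 2 rises and 1 fall without untreated control replicate 2. The untreated comparison likewise went from 16 rises to 2, 6 and 10 without untreated depleted replicates 2, 1 and 3, to 3 without untreated control replicate 2, and to 26 without Cisplatin-treated control replicate 2, which enters through the shared spread. Among genes of under 200 intronic reads, 7.4% of 94 members and 20.1% of 7389 genes were called with Cisplatin in control cells, and 40.4% and 67.6% in depleted cells.

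ZNF766 had the largest rise of the ratio under Cisplatin. Its intronic reads were 1.68%, 0.917% and 2.13% of exonic reads in Cisplatin-treated control cells and 10.2%, 6.29% and 7.02% in Cisplatin-treated depleted cells (log2 2.33 ± 0.30, 5.04 times, adjusted p = 4.13e-06). ZNF296, whose total count rose with the drug, went from 2.76%, 1.12% and 4.40% to 11.55%, 11.8% and 9.895% (log2 2.00 ± 0.34, adjusted p = 3.87e-05). In both genes every depleted library lay above every control library. ZNF552 had 4.23%, 1.59% and 5.55% against 13.3%, 16.05% and 14.4% with Cisplatin (log2 1.95 ± 0.29, adjusted p = 1.34e-05).

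ZNF552 rose without the drug too, from 3.28%, 4.835% and 5.23% to 11.3%, 10.4% and 12.4% (log2 1.34 ± 0.32, adjusted p = 0.00924). ZNF599 went from 14.6%, 12.5% and 25.5% to 34.1%, 49.4% and 57.4% (log2 1.39 ± 0.38, adjusted p = 0.0142), and ZNF266 from 2.01%, 3.56% and 4.17% to 9.94%, 6.09% and 6.72% (log2 1.23 ± 0.41, adjusted p = 0.0317). The groups did not overlap for these 3 genes, but ZNF599 rested on 13 to 43 intronic reads per library and ZNF266 on 7 to 34. ZNF616, called higher with depletion, had a ratio change of −0.48 with Cisplatin (adjusted p = 0.303) and was the 1 of 104 members below 0. The difference between the Cisplatin responses of the ratio under the 2 shRNAs passed the test in 6 of 104 members, all higher in depleted cells (3.63% of all genes were, and 0.0183% lower), with a median of 0.52 against 0.47 over all genes.

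The edgeR test of the exon-level tables called few changes in these genes. Skipped exons were tested 1130 times in members over the 4 comparisons and 1 was called, at an adjusted p under 0.05 and a change of at least 20 points, where 0.0944% of all tests were (0.0559% and 0.25% with Cisplatin in control and depleted cells, 0.0128% and 0.0539% with depletion in untreated and treated cells), with 58 at an unadjusted p under 0.05. It was the ZNF561 exon at chr19:9728297-9728434 (minus strand, 138 bases), included at 57.8%, 19.7% and 21.5% in the 3 untreated control libraries and at 86.9%, 89.4% and 81.5% with Cisplatin (33.0% ± 21.5 and 85.9% ± 4.02, SD, n = 3, edgeR adjusted p = 0.0272). The untreated libraries had 8, 5 and 4 reads that included the exon and 2, 7 and 5 that skipped it, and leaving out any 1 of the 6 libraries ended the call. In depleted cells the same event went from 48.9% ± 14.2 to 86.45% ± 13.7 (adjusted p = 0.649), and counted with another flanking exon it went from 9.73% ± 1.23 to 24.5% ± 4.21 in control cells (adjusted p = 0.321). Retained introns were tested 36 times in members, and edgeR called 0 (1.13% of all tests were called, in the same order 0.0809%, 1.07%, 0.987% and 2.37%). An unadjusted p under 0.05 was found for 5, among them a ZNF317 intron (chr19:9267425-9267943). It was retained at 4.75% ± 1.22 in control and 8.88% ± 0.672 in depleted cells with Cisplatin (adjusted p = 0.0656). No tool other than edgeR was run on these tables here. The paper tested them with the splicing program rMATS at an FDR under 0.05 and the same limit of 20 points. Over all genes it reported far larger shares of introns with higher retention after depletion. The low counts given here therefore hold for the edgeR test, and few calls do not show that splicing was unchanged.

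The proteins with which KRAB zinc fingers work did not rise as a group. Of 16 genes of the pathway, 2 were higher and 9 lower with Cisplatin at an adjusted p under 0.05 (34.8% and 32.1% of all genes were), with a median log2 fold change of −0.21, and 1 passed the fold limit. That was UHRF1, which couples histone marks to maintenance DNA methylation and is strongly tied to S phase, at −1.31 ± 0.13 (adjusted p = 8.29e-07), from 2264 ± 679 to 857 ± 72.9 in control cells. The co-repressor TRIM28 was 29480 ± 6173 in untreated control cells and 34126 ± 4566 with Cisplatin, and its change over both shRNAs did not pass the test (0.23 ± 0.10, adjusted p = 0.0560), nor did that of SETDB1 (0.01 ± 0.08, adjusted p = 0.876). CBX3, a heterochromatin protein of the HP1 family, fell by 0.70 ± 0.06 (adjusted p = 3.37e-07), HDAC1 by 0.37 ± 0.05 (adjusted p = 2.49e-05) and FAM208A, a subunit of the HUSH silencing complex, by 0.40 ± 0.05 (adjusted p = 5.95e-06). MORC2, which acts with HUSH, rose by 0.51 ± 0.10 (adjusted p = 0.000436). With depletion 3 of the 16 were higher and 2 lower (23.5% and 24% of all genes were), none past the fold limit, and CBX5 fell by 0.34 ± 0.06 (adjusted p = 0.000408).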

How the data were processed

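Polyadenylated RNA of the 12 libraries was sequenced as read pairs. The authors removed ribosomal, transfer and mitochondrial RNA reads, aligned the rest to hg19 with STAR 2.5.2b and deposited counts per gene, HTSeq counts over exons and over whole genes, and rMATS tables with reads of each exon or intron form. Inclusion levels were computed here from those reads divided by the length of each form. Sense-strand counts that passed edgeR's filterByExpr were tested with the edgeR 4.0.16 quasi-likelihood test in R 4.3.3 (TMM scaling, Benjamini-Hochberg adjustment over all genes). Cisplatin and depletion were fitted in an additive model, and the interaction and the single comparisons in a model of the 4 conditions. Intronic and exonic counts were compared within libraries in edgeR, as were the exon forms. DESeq2 1.42.0 was an alternative. Named genes were the 5 largest rises and falls called at an average of 1 CPM or more without overlap of libraries, the 5 highest genes, the 3 largest ratio changes each way per depletion comparison, genes with a called exon, and genes with a known role in repeat or RNA control. The members, the lists and these rules were chosen with earlier results of these data known. In control cells, untreated and treated libraries of the same replicate number deviated from their group means together (r = 0.635, 0.733 and 0.48 over 9779 genes). Deviations within a group cancel out, and the libraries numbered 2 stood apart in both groups. The values are thus not independent and cannot decide whether the number pairs the libraries. A block on the number within each shRNA raised the interaction genes at an adjusted p under 0.05 from 3 to 13 and changed no count under the fold limit by more than 1.5 times. Scripts were tested on simulated data with known changes. The expression test for Cisplatin recovered 39 of 50 changes of 2-fold. The ratio test for depletion in untreated cells recovered 5 of 50 changes of 1.5 times, 29 of 50 of 2 times and 48 of 50 of 3 times, so it missed most small changes. KRAB and finger patterns were searched in proteins translated from reference transcripts.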

Additional observations from a re-analysis of the deposited data

Results flagged for a closer look

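The Cisplatin response of 3 genes differed between control and depleted cells in the edgeR test of the difference at an adjusted p under 0.05, though none by a fold of 2: ZNF561 (−0.605 ± 0.15), ZNF227 (−0.62 ± 0.12) and ZNF530 (0.65 ± 0.15), where a negative value is a smaller rise in depleted cells. Left out one at a time, the libraries took this count from 0 (without untreated depleted replicate 1 or 3 or Cisplatin-treated depleted replicate 3) to 7 (without untreated control replicate 2). The intronic to exonic ratio did so in 6 genes, each with a larger rise in depleted cells, in a comparison added after seeing the data: ZNF114 (log2 difference 1.21), ZNF428 (1.26), ZNF444 (1.57), ZNF480 (1.31), ZNF627 (1.36) and ZNF787 (1.33). ZNF444 had mean intronic percentages of 36.2 and 28 in control cells without and with Cisplatin and of 37.9 and 85.8 in depleted cells. None of the 104 genes passed without untreated depleted replicate 3, Cisplatin-treated depleted replicate 3 or Cisplatin-treated control replicate 1, and 39 passed without Cisplatin-treated control replicate 3. Each group had 3 libraries, too few for a test of single stray values.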

How the results depend on the processing

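The direction of every named change held under all settings tried, and the call held in 338 repeats of a named change and was lost in 7 (the ratio of ZNF266 in 4, that of ZNF599 in 2 and the change of ZNF613 in 1). Dropping the fold limit raised the called members to 120 with Cisplatin, 63 with depletion, 3 in the interaction, 108 and 104 with Cisplatin in control and depleted cells, and 37 and 54 with depletion in untreated and treated cells. Requiring 10 counts in every library left 6 depletion calls over both treatments, 6 in untreated and 7 in treated cells, because it leaves out genes of low counts. Scaling by library size in place of TMM moved the median of all genes from 0.03 to 0.13 with Cisplatin and gave 46 rises and 1 fall, and with no filter on low counts 12 genes rose and 6 fell with depletion.

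With single libraries, or both control libraries numbered 2, left out, called members ranged from 28 to 43 for Cisplatin over both shRNAs, from 28 to 46 in control and 31 to 38 in depleted cells. They ranged from 11 to 13 for depletion, from 7 to 10 in untreated and 11 to 16 in treated cells, and stayed at 0 for the interaction. For the intronic to exonic ratio the ranges were 3 to 16 and 30 to 48 for Cisplatin in control and depleted cells, and 2 to 26 and 73 to 92 for depletion in untreated and treated cells. Without both control libraries numbered 2, 11 members changed their ratio with Cisplatin in control cells. Called skipped exons ranged from 0 to 1 and retained introns from 0 to 1, and 2 skipped exons were called at a mean of at least 20 reads. The cause of these shifts was not tested.

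A replicate block gave 38 calls for Cisplatin, 13 for depletion, 0 for the interaction, 38 and 37 for Cisplatin in control and depleted cells, and 10 and 14 for depletion in untreated and treated cells. For the ratio it gave 7, 45, 14, 89 and, for the interaction, 6, and it changed none of these counts by more than 1.5 times. A replicate block within each shRNA gave 0 interaction calls, but 13 in place of 3 without the fold limit. Same-numbered libraries correlated at −0.204 to 0.137 across the shRNAs and at 0.412, −0.069 and 0.297 in depleted cells. Pairing by number was thus not shown there either, though both blocks rely on it.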
